A study of Danio rerio with 2 samples.

Results

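Regions that were called as 1 unbroken ATAC-seq peak in one neuroblastoma library and as 2 or more separate peaks in the other were described in zebrafish tumour cells. A peak on chromosomes 1 to 25 was taken as continuous when it overlapped at least 2 peaks of the other list, each by at least 1 bp, and the overlapped peaks are called its pieces. Of 77834 MYC peaks, 1223 were continuous over pieces in MYCN, and of 68556 MYCN peaks, 624 were continuous over pieces in MYC. The directions are kept apart throughout, and positions are on the zebrafish build danRer7 with starts counted from 1. The regions were selected on the called positions of the peaks in both lists, so their number, widths and gaps are descriptions and no test was made on them.

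The cells were EGFP-positive neuroblasts sorted from tumours of zebrafish that carry either a MYCN or a MYC transgene, with the dbh:EGFP reporter marking tumour cells in both groups. The product of dbh makes noradrenaline from dopamine and marks the sympathoadrenal lineage. Each group was 1 library made from 50000 sorted cells, with no replicate, so any difference below is one between these libraries, and the spread from tumour to tumour is not known. The age of the fish, the number of tumours behind a library and the promoter that drives each transgene are not given in the sources used here, and peak lists hold no read depth. Gene annotation of the build was not used, so the labelled cell type was not checked against marker genes.

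ATAC-seq reports where the transposase Tn5 can reach DNA. Promoters and enhancers of active genes are usually depleted of nucleosomes, and a nucleosome that remains between neighbouring open stretches lowers the insertion signal there. Peak callers join stretches of enriched signal that lie close together, so the same site can be returned as 1 wide peak or as several narrow ones. MYC and MYCN are closely related transcription factors that pair with MAX and bind E-box motifs, largely in chromatin that is already open. A split is therefore a statement on called peaks, and the signal inside a gap was not analysed here.

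Continuous regions were uncommon in both directions and were more frequent among MYC peaks. The continuous regions were 1.57% of all MYC peaks (95% Wilson interval 1.49 to 1.66) and 0.91% of all MYCN peaks (0.842 to 0.984). Among peaks with any counterpart in the other list, the shares were 2.21% and 1.12%. There were 1.96 times as many MYC-continuous as MYCN-continuous regions, whereas the MYC list was 1.14 times as long as the MYCN list. Intervals cover counting error only and say nothing of other tumours.

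Nearly all regions were broken into a pair of pieces. Of the MYC-continuous regions, 1205 had 2 MYCN pieces, 17 had 3 and 1 had 4. Of the MYCN-continuous regions, 620 had 2 MYC pieces and 4 had 3.

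The most fragmented region lay on chromosome 5 at 1199089 to 1203907, where a MYC peak of 4819 bp with a score of 183 covered 4 MYCN peaks. The score is a whole number given to each peak in the authors' files, and it ranks peaks only within its own list. The MYCN pieces were 1728, 202, 1764 and 870 bp wide, with scores of 195, 72, 162 and 213, and the gaps between them were 125, 165 and 74 bp. All pieces except the narrow second one were thus wide peaks, and the gaps made up little of the region. A region on chromosome 13 at 4524059 to 4525871 had the opposite form. Its MYC peak of 1813 bp had a score of 231, while its 3 MYCN pieces had scores of 57, 44 and 83, widths of 298, 220 and 502 bp, and gaps of 617 and 74 bp. Another 3 regions had 3 MYCN pieces and were named for them, with MYC peaks at 31635522 to 31637314 of chromosome 5, 53177881 to 53179653 of chromosome 2 and 30661113 to 30662469 of chromosome 10. On chromosomes 2 and 10 a single strong piece carried the site. The MYCN scores were 66, 55 and 547 on chromosome 2 and 532, 49 and 82 on chromosome 10.

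**Figure D1:**
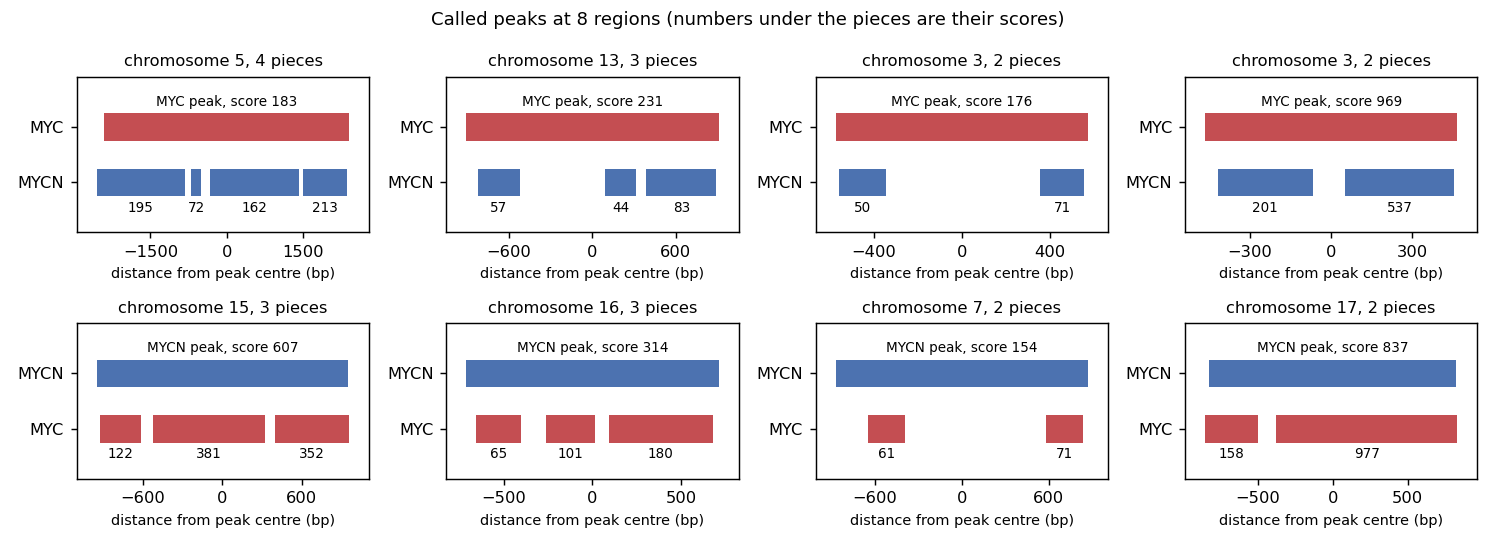
Called peaks at 8 of the named regions, the upper row continuous in MYC and the lower row continuous in MYCN. Each bar is a called peak drawn to scale by its distance in bp from the centre of the continuous peak, with scores beside the bars. The pieces of a region differ in score, from 61 and 71 at the region with the 972 bp gap on chromosome 7 to 158 and 977 on chromosome 17.

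The longest single MYCN gap spanned by a MYC peak was 702 bp. It lay on chromosome 3 within 34885291 to 34886434, where the MYC peak of 1144 bp with a score of 176 covered MYCN pieces of only 211 and 200 bp, with scores of 50 and 71. On the same chromosome at 32457474 to 32458935, a MYC peak with a score of 506 spanned a MYCN gap of 531 bp between pieces with scores of 46 and 310. The other long gaps were 617 bp in the chromosome 13 region described above, 573 bp on chromosome 16 within the pieces around 4013061 to 4013970 and 493 bp on chromosome 1 at 45361884 to 45362933. On chromosome 16 the overlap was slight at one side, since the MYC peak shared 21 bp with its first piece and 316 bp with the second. Each of these 5 regions had at least 1 piece below the MYCN median score of 99, the lowest being 22 on chromosome 1. Such a piece was present in 80.5% of all MYC-continuous regions.

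The strongest MYC-continuous peaks each combined a strong and a weaker MYCN piece. The highest score was 969, at rank 89 of the MYC list, on chromosome 3 at 19021757 to 19022687, and its pieces scored 201 and 537 across a gap of 121 bp. On chromosome 16 at 42567180 to 42568414 the MYC score was 966 and the pieces scored 47 and 636. On chromosome 15 at 5692503 to 5693313 the MYC score was 923 and the pieces scored 71 and 774, the latter at rank 106 of the MYCN list. The peak at 20739541 to 20740769 of chromosome 22 scored 912 with a weaker piece of 35, and the peak at 19463565 to 19464438 of chromosome 2 scored 893 with a weaker piece of 74. In 4 of these 5 regions the weaker piece thus scored below the median of the MYCN list, which was 99, and on chromosome 3 it scored above it. The weakest piece was below that median in 80.5% of all MYC-continuous regions. A minimum over pieces is low by construction, so nothing is read from the 4 regions. Gaps in these 5 regions ran from 77 to 147 bp.

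A few MYC peaks extended far beyond the MYCN pieces. The largest added width, which is the width of the continuous peak minus the summed width of its pieces, was 833 bp on chromosome 7 at 22800457 to 22801824. There the MYC peak of 1368 bp began 698 bp before the first MYCN piece, and the gap itself was 137 bp. The other regions named for this measure added 793 bp (chromosome 13, above), 741 bp (chromosome 24 at 1022000 to 1023520), 733 bp (chromosome 3 at 34885291, above) and 653 bp (chromosome 17 at 10526690 to 10527879). On chromosome 17 the MYC peak reached past its pieces by 165 bp at the left and 330 bp at the right. More of the added width lay in the flanks than in the gap on chromosomes 7 and 17, where the gaps were 137 and 158 bp, and more in the gaps on chromosomes 3, 13 and 24.

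Among regions continuous in MYCN, only 4 had 3 pieces. On chromosome 15 at 9609175 to 9611068, a MYCN peak of 1894 bp with a score of 607 covered MYC pieces with scores of 122, 381 and 352 and gaps of 90 and 78 bp. On chromosome 16 at 32684848 to 32686271 the MYCN score was 314 and the MYC pieces scored 65, 101 and 180. Chromosome 13 at 6470632 to 6471889 (MYCN score 267) had MYC pieces of 111, 290 and 62, and chromosome 24 at 41753310 to 41754539 (237) had pieces of 296, 32 and 32. The scores within each of these regions were unequal, and on chromosome 24 a single piece led 2 pieces of 32.

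The longest gap of all was 972 bp and lay in the MYC list on chromosome 7, within the MYCN peak at 73961875 to 73963617. That MYCN peak was 1743 bp wide with a score of 154, and its MYC pieces were 254 and 255 bp wide with scores of 61 and 71. Its added width of 1234 bp was also the largest in either direction. The other long MYC gaps were 534 bp (chromosome 19 at 35859125 to 35859979), 444 bp (chromosome 8 at 51988808 to 51990038), 419 bp (chromosome 6 at 23424183 to 23425563) and 407 bp (chromosome 7 at 76761108 to 76761848). The peaks on chromosome 19 and at the second chromosome 7 site were weak in MYCN too, each with a score of 52 at rank 55739.

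The strongest MYCN-continuous peaks each combined a stronger and a weaker MYC piece. The highest MYCN score was 837, at rank 53, on chromosome 17 at 40105858 to 40107506, and its MYC pieces scored 158 and 977 across 118 bp. The next was 807 on chromosome 13 at 13805630 to 13806695, with MYC pieces of 903 and 67. Chromosome 24 at 40850180 to 40850969 followed with 767 (pieces 798 and 70), chromosome 1 at 13168199 to 13169392 with 746 (824 and 171) and chromosome 2 at 54629343 to 54630157 with 719 (54 and 877). The stronger piece of each of these regions ranked within the first 482 peaks of the MYC list. The weaker piece scored above the MYC median of 110 on chromosomes 17 and 1, and below it on chromosomes 13, 24 and 2. The lower of 2 scores is low and the higher one high by construction, so nothing is read from these scores. Regions with large added width included chromosome 3 at 44790754 to 44792221 (848 bp), chromosome 4 at 28001563 to 28003638 (638 bp), chromosome 8 at 45750580 to 45752259 (622 bp) and chromosome 7 at 62962871 to 62964297 (506 bp).

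The gaps between pieces were short. In MYCN, the 1242 gaps spanned by a MYC peak had a median of 121 bp (quartiles 92 and 159) and ran from 73 to 702 bp. In MYC, the 628 gaps spanned by a MYCN peak had a median of 109 bp (quartiles 88 and 141) and ran from 74 to 972 bp. Gaps under 150 bp made up 69.4% of the first set and 78.5% of the second, and gaps of 300 bp or more 3.95% and 3.03%. A spanned gap has to fit under 1 peak, so short gaps follow in part from the rule. Gaps under 200 bp were 86.2% and 89.5% of the spanned ones. Of all neighbours under 1 kb apart, 2898 of 6335 in MYCN and 3430 of 7579 in MYC were that close. Among all neighbours under 500 bp apart, the median gap was also longer in MYCN, 170 bp against 164 bp in MYC. The lower limit belongs to the lists themselves, since no neighbouring peaks of the MYCN list were closer than 73 bp and none of the MYC list closer than 74 bp. Gaps under 100 bp, near that limit, made up 33.2% of the MYCN gaps and 39.6% of the MYC gaps. Of all neighbours under 1 kb apart, 752 of 6335 MYCN pairs and 891 of 7579 MYC pairs had such a gap.

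**Figure D2:**
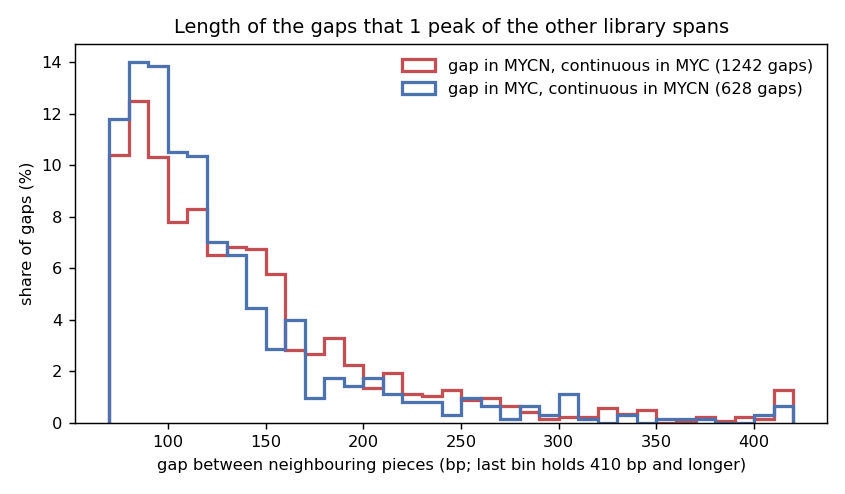
Share of gaps (%) by gap length in bins of 10 bp, with 1242 gaps in the MYCN list that a MYC peak spans (red) and 628 gaps in the MYC list that a MYCN peak spans (blue). Both distributions begin at the smallest distance in the lists, 73 and 74 bp, and have medians of 121 and 109 bp.

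The gaps lay nearer to the centre than to the ends of the continuous peak in most regions. The centre of a gap stood at a median of 39.9% of the peak width from the nearer end in MYC and 38.8% in MYCN, where 50% would be the exact middle. Each piece is at least 200 bp wide and most pieces lay largely inside, which by itself keeps a gap away from the ends. Nothing is therefore read from this position. All gaps of a region together took a median of 15.7% of the continuous width in MYC and 16.3% in MYCN. The wider piece was typically 1.49 times as wide as the narrower one in MYCN and 1.47 times in MYC, with the largest ratios at 8.73 and 8.28. The upper quartiles of that ratio were 1.98 and 1.96. A ratio of wider to narrower is at least 1 by construction, and it was not measured for other neighbouring peaks, so nothing is read from it. The minimum peak width of 200 bp limits how large this ratio can be.

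MYC-continuous regions were mostly wider than the sum of their pieces, and MYCN-continuous regions less often so. The median width was 808 bp for MYC-continuous peaks, against 337 bp for all MYC peaks, and 724.5 bp for MYCN-continuous peaks, against 324 bp for all MYCN peaks. Peaks of at least 600 bp made up 87.2% of the MYC-continuous regions and 71.0% of the MYCN-continuous ones, beside 12.6% of all MYC peaks and 9.98% of all MYCN peaks. A continuous peak has to cover a whole gap and reach into both neighbours, so these widths follow in part from the rule, although the narrowest continuous peak was 200 bp wide in both lists. The added width had a median of 133 bp in MYC (quartiles 63 and 214.5) and 46 bp in MYCN (quartiles -85.25 and 131). The continuous peak was narrower than its pieces together in 186 MYC-continuous regions (15.2%) and in 246 MYCN-continuous regions (39.4%).

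**Figure D3:**
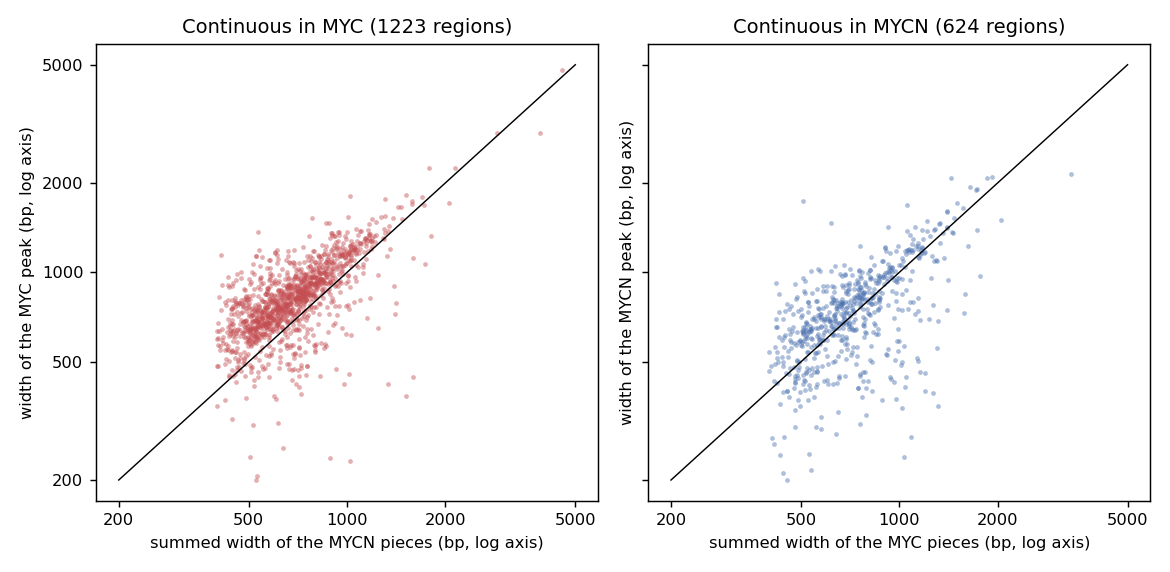
Width of each continuous peak (bp, log axis) against the summed width of its pieces in the other list (bp, log axis), 1 point per region, with the line of equality. Of 1223 MYC-continuous regions 1035 lie above the line, and of 624 MYCN-continuous regions 377 do.

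The difference in added width lay mostly at the outer ends and less in the gaps. The mean added width was 125.5 bp in MYC-continuous and 3.45 bp in MYCN-continuous regions, and the mean gap 140.3 and 128.9 bp. The continuous peak reached past its pieces by a mean of -7.24 bp (left) and -9.72 bp (right) in MYC-continuous regions. In MYCN-continuous regions the means were -68.2 and -58.1 bp, where a negative value means that the pieces reached further. The median gap was 121 bp in MYC-continuous and 109 bp in MYCN-continuous regions. In MYC-continuous regions the outermost MYCN pieces ended close to the MYC peak, with the MYC peak reaching past them by a median of 4 bp on the left and 5 bp on the right. In MYCN-continuous regions the MYC pieces reached past the MYCN peak, which fell short of them by a median of 19 bp on the left and 21 bp on the right. All pieces lay wholly inside the continuous peak in 32.0% of MYC-continuous and 12.2% of MYCN-continuous regions, and pieces stuck out at both ends in 20.4% and 47.4%. Both outer ends agreed within 50 bp in 544 and 175 regions (44.5% and 28.0%). Peaks of the MYC list reached further in one-to-one pairs as well, where the MYC peak passed both ends of its MYCN partner in 36.9% of 52911 pairs and the reverse held in 14.1%. Of these pairs, 64.0% had the wider peak in MYC. The part of this general width difference in the split regions was not tested.

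The share of peaks that were continuous over pieces was larger at greater width in both lists. At 600 bp and above it was larger in MYC in each width class. A wider peak can overlap more pieces, so the rise with width follows in part from the rule. The intervals cover counting error only. In the class from 600 to below 800 bp, 6.44% of MYC peaks (5.88 to 7.06) and 4.32% of MYCN peaks (3.78 to 4.92) were continuous over pieces. From 800 to below 1000 bp the shares were 17.0% (15.5 to 18.7) and 9.23% (7.81 to 10.9), and from 1000 to below 1500 bp they were 27.4% (24.6 to 30.5) and 17.3% (14.3 to 20.8). At 1500 bp or more, 22 of 46 MYC peaks and 15 of 40 MYCN peaks were continuous over pieces. The intervals overlapped (34.1 to 61.9 and 24.2 to 53.0). Below 600 bp the order was the opposite. From 400 to below 600 bp the share was 0.728% in MYC (141 of 19380, 0.617 to 0.857). In MYCN it was 0.896% (144 of 16077, 0.761 to 1.05), and the intervals overlapped. Below 400 bp, 16 of 48630 MYC peaks and 37 of 45640 MYCN peaks were continuous over pieces.

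Continuous peaks had lower median scores than peaks of the same width class with a single counterpart. In the class from 600 to below 800 bp, the median score was 234 for 433 continuous MYC peaks and 291 for 6032 MYC peaks that overlapped 1 MYCN peak. In MYCN the medians in that class were 151.5 for 212 continuous peaks and 228 for 4573 others. The same order stood in all 6 width classes of both lists, but widths were not matched within a class. Below 400 bp it rested on 16 continuous MYC and 37 continuous MYCN peaks. At 1500 bp or more it rested on 22 continuous against 24 other MYC peaks and 15 against 25 MYCN peaks. Without regard to width, continuous peaks had a median score of 250 against 110 for all MYC peaks, and of 143 against 99 for all MYCN peaks. The rule leaves out peaks without a counterpart and takes mostly wide ones, so neither this difference nor the shares below compare like with like. A score of 227 or more, the upper quartile of the MYC list, was held by 55.7% of the MYC-continuous peaks, beside 25% of all MYC peaks. A score of 183 or more, the upper quartile of the MYCN list, was held by 39.6% of the MYCN-continuous peaks, beside 25% of all MYCN peaks. At or below the lower quartiles, 58 in MYC and 59 in MYCN, stood 3.60% of the MYC-continuous and 12.0% of the MYCN-continuous peaks, beside 25% and 25.4%.

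**Figure D4:**
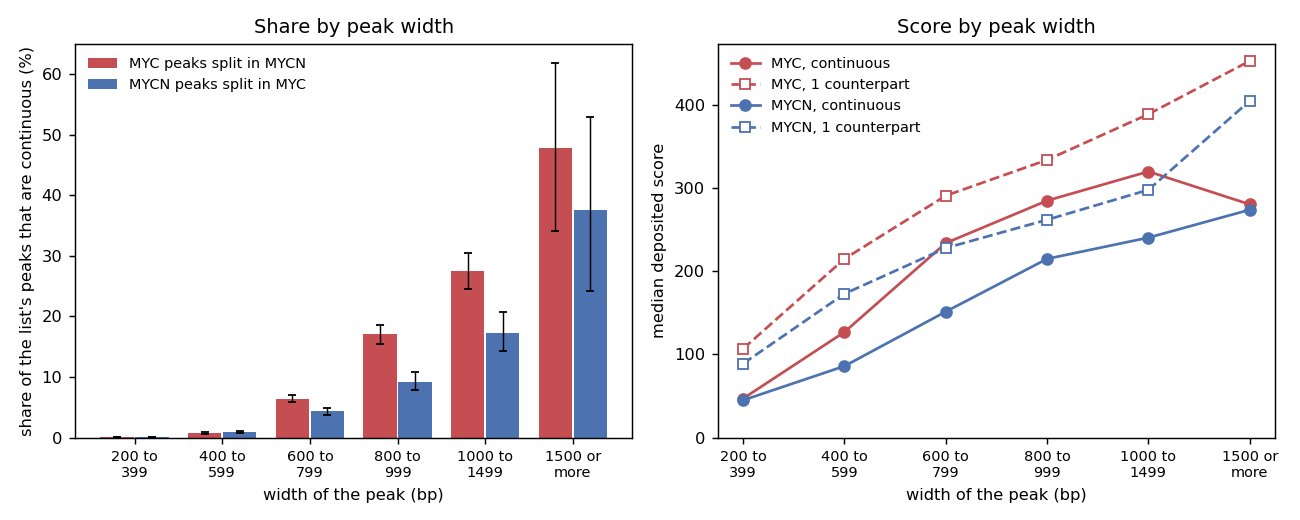
Left, share of the peaks of each list that were continuous over pieces (%), by peak width in bp, with 95% Wilson intervals for counting error. Right, median deposited score of continuous peaks (filled) and of peaks with 1 counterpart (open) by the same width classes, where scores of the lists need not be on the same scale. The share reaches 47.8% in MYC and 37.5% in MYCN in the widest class, and the filled symbols lie below the open ones of the same list.

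The scores of the strongest and the weakest piece of a region are given beside those of the whole lists. Over MYCN pieces, the stronger one had a median score of 168 (quartiles 98 and 273.5) and the weakest one of 59 (44 and 87), while the median of the whole MYCN list was 99. Over MYC pieces, the corresponding medians were 191.5 (103.75 and 333) and 63 (43 and 99.25), with 110 for the whole MYC list. The weakest piece lay below the median score of its list in 985 of 1223 MYC-continuous and 492 of 624 MYCN-continuous regions (80.5% and 78.8%). It lay at or below the lower quartile in 50.5% and 44.6%, beside 25.4% of all MYCN peaks and 25% of all MYC peaks. The stronger piece lay at or above the upper quartile of its list in 45.5% and 44.9%, beside 25% of all peaks of either list. A minimum over 2 or more pieces is low and a maximum high by construction, so nothing is read from these shares.

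Viewed from the split side, closely spaced pairs of MYCN peaks were spanned by 1 MYC peak more often than the reverse. The spanned pairs are the same 1242 MYCN gaps and 628 MYC gaps described above, now set against all close pairs. They therefore give no separate support for the larger number of MYC-continuous regions. Of 6335 pairs of neighbouring MYCN peaks under 1 kb apart, 19.6% were spanned by a MYC peak, and of 7579 such MYC pairs, 8.29% were spanned by a MYCN peak. The MYCN list therefore held fewer close pairs but more spanned ones. At gaps under 100 bp, 412 of 752 MYCN pairs (54.8%, interval 51.2 to 58.3) and 249 of 891 MYC pairs (27.9%, 25.1 to 31.0) were spanned. At 150 to 199 bp the shares were 25.1% and 7.81%, at 300 to 499 bp 4.25% and 1.39%, and at 500 to 999 bp 0.284% and 0.112%. Spanning was less frequent at each longer gap class in both directions. Only a peak wider than the gap can reach both members of a pair, and wide peaks were a minority of either list. The fall with gap length therefore follows in part from the rule, and nothing further is read from it.

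Most close pairs were not spanned but kept as separate peaks or called at a single member. Among MYCN pairs under 1 kb apart, both members had their own MYC peaks in 55.5%, 1 member only had a MYC peak in 20.6% and neither did in 4.31%. Among MYC pairs, the shares were 46.6%, 35.8% and 9.30%. At the shortest gaps, under 100 bp, 26.9% of MYCN pairs and 34.3% of MYC pairs were called as separate peaks in the other list. The weaker member of a pair scored higher in pairs kept as separate peaks than in spanned ones. A pair counts as kept only if each member had its own peak in the other list. The order may therefore follow in part from how the pairs were sorted, which was not tested. At gaps under 500 bp, the weaker member of a MYCN pair had a median score of 77 when both were called separately in MYC, 59 when spanned and 49 when only 1 member was called. The corresponding medians for MYC pairs were 103, 63 and 57.

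**Figure D5:**
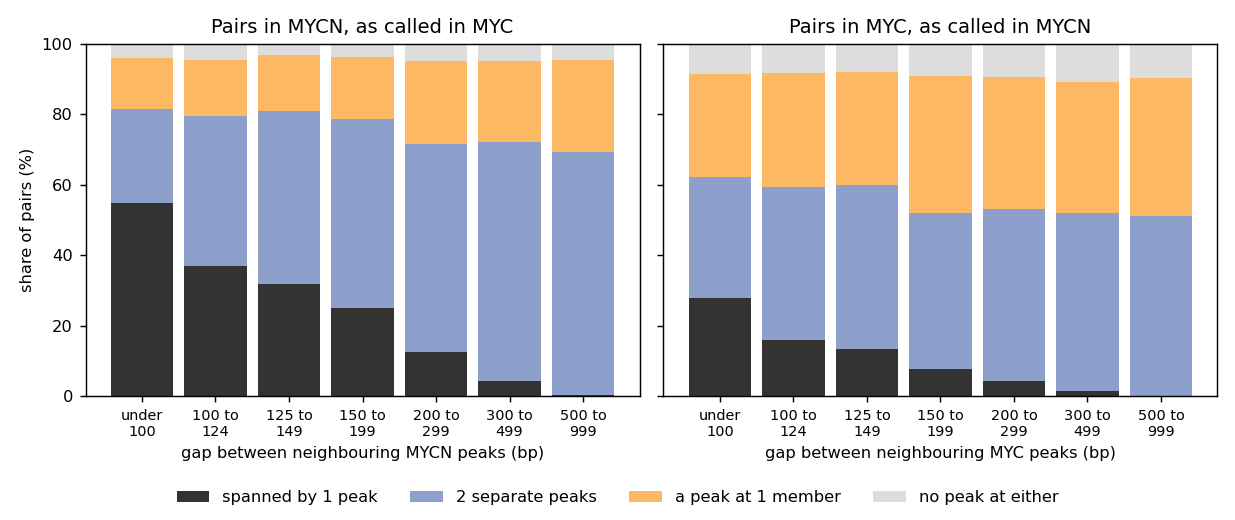
Neighbouring peaks of the MYCN list as called in MYC (left) and of the MYC list as called in MYCN (right), by the gap between them in bp; bars give the share of pairs (%) spanned by 1 peak, called as separate peaks, called at 1 member or at neither. The spanned share under 100 bp is 54.8% on the left and 27.9% on the right, and from 500 bp it is 0.284% and 0.112%.

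A small number of sites were continuous and split in both directions at once, because the peaks were staggered. In 67 MYC-continuous and 66 MYCN-continuous regions, a piece was itself continuous over 2 or more peaks of the first list, which gave 69 interleaved couples of a MYC and a MYCN continuous peak. The couples shared a median of 87 bp. They formed 64 chains of overlapping peaks with a median length of 1126.5 bp, and the longest covered 4022 bp on chromosome 11. There the MYC peak at 18065024 to 18067965 (score 428) and the MYCN peak at 18066466 to 18068613 (score 561) shared 1500 bp, a gap of 96 bp in MYCN lay inside the former and a gap of 260 bp in MYC lay inside the latter. The next longest chain lay on chromosome 20 at 5092107 to 5094472 and linked 3 MYC and 4 MYCN peaks over 2366 bp. It was followed by 2227 bp on chromosome 1 at 56377981 to 56380207 and 2058 bp at 18269375 to 18271432 of chromosome 20, each with 2 peaks of either list. Without interleaved regions, 1156 MYC-continuous and 558 MYCN-continuous regions remained, and the median added width in MYCN was 67 bp instead of 46 bp.

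At the limit of the rule, 8 of 2465 MYCN pieces and 10 of 1252 MYC pieces shared under 10 bp with their continuous peak, and 57 and 64 shared under 50 bp. Just outside it stood 59 MYC peaks and 55 MYCN peaks that overlapped 1 piece and ended less than 50 bp from the next. Pieces were mostly well inside, with 92.8% of MYCN pieces and 83.9% of MYC pieces lying at least 50% within the continuous peak.

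The regions were spread over all 25 chromosomes, and each chromosome held more MYC-continuous than MYCN-continuous regions. Per chromosome, the continuous share of the MYC peaks ran from 1.12% on chromosome 22 (27 of 2403) to 1.95% on chromosome 8 (63 of 3239). The continuous share of the MYCN peaks ran from 0.613% on chromosome 9 (19 of 3101) to 1.25% on chromosome 4 (30 of 2401). No chromosome had a Wilson interval that excluded the genome-wide share in either direction. Regions in the terminal 2 Mb of a chromosome, counted from position 1 and from the last peak, made up 9.32% of the MYC-continuous and 9.29% of the MYCN-continuous regions, beside 9.26% and 9.05% of all peaks. Peak density around the regions was close to that of the lists, with a median of 7 other MYC peaks within 50 kb of a MYC-continuous region and 7 around any MYC peak, and 6 in both cases in MYCN.

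Some regions lay close together, in part because an interleaved site counts in both directions. The median distance to the next region of either kind was 463 kb, and 103 of 1822 neighbouring regions were under 10 kb apart, interleaved couples included. Within a direction, 19 of 1198 neighbouring MYC-continuous and 5 of 599 neighbouring MYCN-continuous regions were under 10 kb apart. Among windows of 1 Mb, chromosome 7 at 39 to 40 Mb and chromosome 11 at 18 to 19 Mb held the most regions, 9 each. The former held 6 continuous in MYC and 3 in MYCN, and the latter 5 and 4. Both windows hold interleaved couples, and window counts were not set against the number of peaks in a window. Chromosome 8 at 26 to 27 Mb held 7 MYC-continuous regions and 1 MYCN-continuous region. On chromosome 2 at 31 to 32 Mb there were 4 MYCN-continuous regions and no MYC-continuous one, and on chromosome 16 at 11 to 12 Mb there were 4 and 1.

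In windows of 1 Mb, regions were more often continuous in MYC where more of the peaks called in a single list were MYC-only. Genome-wide, 66.2% of the 1847 regions were continuous in MYC (64.0 to 68.3), and 64.1% of the 35142 peaks without a counterpart were MYC-only. In 1 Mb windows where MYC-only peaks were under 50% of at least 10 such peaks, 53.7% of 354 regions were continuous in MYC (48.5 to 58.8). The share was 64.0% where MYC-only peaks were 50% to under 65%, 71.1% where they were 65% to under 80%, and 73.2% of 362 regions where they were 80% or more (68.4 to 77.5). Within 50 kb of a MYC-continuous region, MYC-only peaks made up 71.5% (70.0 to 73.0) of the 3478 peaks without a counterpart, and within 50 kb of a MYCN-continuous region 63.5% (61.1 to 65.7) of 1694, close to the genome-wide share. Of whole chromosomes, those with the lowest and the highest MYC-only shares are given. Chromosome 1 had the lowest, 55.5% MYC-only peaks, and 67.7% of its regions were continuous in MYC (57.8 to 76.2). Chromosome 9 had 56.6% MYC-only peaks and 72.5% of its regions continuous in MYC (61.0 to 81.6). Chromosome 4 had 69.1% and 58.3% (46.8 to 69.0) and chromosome 6 had 69.8% and 62.5% (51.0 to 72.8). Chromosome 24 had 69.5% and 72.5% (59.1 to 82.9) and chromosome 12 had 57.2% and 58.3% (45.7 to 69.9). No chromosome had an interval that excluded the genome-wide share of 66.2%, so single chromosomes cannot show whether the order of the windows holds in them. Both measures come from the same pair of libraries and are not independent of each other.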

How the data were processed

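ATAC-seq peaks were taken from 1 MYCN and 1 MYC library. Per the submitters' processing notes, Bowtie2 2.2.1, MACS2 2.1.0 and the zebrafish build danRer7 were used. The notes give no settings, and Tn5 offset, duplicate removal and controls are not given in the sources used here. Deposited lists give chromosome, start, end and a score per peak, called per library and not pooled. The score is a whole number from 13 upward whose scale no header states, so it was used within its own list only. Starts are printed counted from 1, and mitochondrial peaks were left out.

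The overlap code ran in Python 3.11.15 (numpy 2.4.6, pandas 2.3.3, scipy 1.17.1 and networkx 3.6.1), was tested on simulated data, and the counts were equal to those from bedtools 2.31.1. Figures used matplotlib 3.10.9. Shares have 95% Wilson intervals, which cover counting error only. With 1 library per transgene no test between them was made, and depth is unknown. The regions and measures were chosen with earlier results of these data known. The regions named in each direction were the 5 with the most pieces (ties by width), the 5 with the longest gap, the 5 highest scores and the 5 largest added widths. The interleaved regions, the pairs by score, the neighbourhoods and the windows were added after the values were seen. A danRer7 genome and gene annotation were not used here, so no sequence or gene is given.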

Additional observations from a re-analysis of the deposited data

How the results depend on the processing

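More MYC-continuous than MYCN-continuous regions were found under all 8 alternatives, of which leaving out interleaved regions was chosen after seeing the data. The ratio of 1.96 was 2.37 with at least 50% of each piece inside, 2.59 with the MYC list trimmed to the MYCN length by score, and 2.59 with a gap of at least 200 bp required. Requiring that gap left 171 MYC and 66 MYCN regions (0.220% and 0.0963% of peaks), and by its construction the median gaps were 248 and 256 bp and the median added widths 285 and 205.5 bp. With peaks at or above the median score of each list, 240 and 122 regions remained (0.603% and 0.355%), with median gaps of 113.5 and 99 bp. With peaks closer than 100 bp merged, the shares were 1.36% and 0.742%, the median gaps 145 and 133 bp, since the shortest gaps were removed, and the added widths 163 and 86 bp. With at least 50% of each piece inside, the shares were 1.36% and 0.649% and the added widths 151 and 90 bp. With at least 50 bp shared, the MYCN share was 0.817% and its added width 66 bp. Trimming gave shares of 1.76% and 0.677%. It removed only the lowest-scoring MYC peaks, weak MYC pieces among them, and left the MYCN list whole. The MYCN-continuous regions fell from 624 to 464 and the MYC-continuous ones from 1223 to 1204. The higher ratio after trimming is therefore in part built into it, and nothing is read from it about list length. Without interleaved regions the shares were 1.49% and 0.814% and the MYCN added width 67 bp. The remaining 38 of 72 values moved by less than their interval, or by less than 1.5 times for counts. Keeping mitochondrial peaks added 1 region. Leaving out a replicate was not an option. No paired analysis was possible because there was 1 library per group. Unknown depth limits every count of peaks, and its part in the ratio was not tested.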

Other observations

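One mitochondrial region, outside the chromosomes counted above, also had this form. The MYC peak at 13218 to 16544 was 3327 bp wide with a score of 85 and covered 2 MYCN peaks with scores of 84 and 24, 93 bp apart.

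Close neighbours of the MYCN list included a somewhat larger share of gaps of 130 to 159 bp, a range chosen after the values were seen. Of 2898 neighbouring MYCN peaks under 200 bp apart, 27.0% had such a gap (25.4 to 28.7), against 23.6% of 3430 in the MYC list (22.3 to 25.1). Among the pairs spanned by a peak of the other list, the shares were 22.5% of 1071 in MYCN (20.1 to 25.1) and 15.5% of 562 in MYC (12.7 to 18.7). In bins of 10 bp, the spanned share of MYCN pairs was 60.3% at 70 to 79 bp, 30.0% at 140 to 149 bp and 23.3% at 190 to 199 bp, and for MYC pairs it was 37.0%, 10.7% and 7.32%. In both lists, gaps of 130 to 159 bp were thus less common among spanned pairs than among all pairs under 200 bp apart. Gaps of 190 to 199 bp were too, with 2.61% against 4.14% in MYCN and 1.60% against 3.59% in MYC. The lower share is therefore not particular to 130 to 159 bp.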
